A study of Mus musculus with 4 samples.

Results

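Gse1, Vps37b, Hip1r and Wwox are 4 mouse genes whose surroundings held many DNase I accessible sites in naive CD8 T cells, although none of them is a usual marker of these cells. They were chosen by the number of accessible sites measured at them in these same libraries, so the counts and densities below describe the choice and were not tested. The gene models were those of GENCODE for the mm10 genome, and a locus was taken as the gene with 25 kb added at both ends. The rule named 4 of 21938 protein-coding genes, and their loci together held 90 of the 41228 sites counted in the whole series, each site counted once. The measurement was DNase-seq, in which the enzyme DNase I cuts open chromatin more often than packed chromatin and the cut ends are sequenced. All samples formed 1 group of 4 libraries, labelled as biological replicates 1 to 4, from resting naive alpha-beta T cells positive for CD8, taken from female adult mice of the hybrid strain B6CASTF1/J at 2 months of age. There was no treated or control group, and the labels gave 1 donor identifier for all 4 libraries and separate biosamples, so p-values measure only the spread between these libraries, which may be technical.

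Gse1 encodes a coiled-coil protein found in histone deacetylase corepressor complexes. Vps37b encodes a subunit of ESCRT-I, the complex that sorts ubiquitin-tagged membrane receptors into vesicles bound for the lysosome. Hip1r encodes a protein that ties clathrin coats to actin during endocytosis. Wwox encodes an oxidoreductase with WW domains, and its very long gene spans a chromosomal fragile site. Accessible chromatin usually takes the form of short sites at promoters and enhancers, where bound factors leave footprints, short stretches protected from cutting.

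The longer of the 2 peak lists held 69413, 70552, 51121 and 20647 peaks in replicates 1 to 4, and the step size of the peak heights implied 109, 62.9, 91.5 and 24.3 M cuts. Peaks of the libraries were merged where they overlapped, and a consensus site was one called in at least 3 of the 4 libraries. Heights are given as relative heights, the peak height divided by that library's median over the sites called in all 4 libraries, with 0 where no peak was called. The median relative height of all peaks was 0.233, 0.202, 0.323 and 0.895, so replicate 4 listed mostly tall peaks.

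The labelled cell type was checked against promoter peaks, those within 1 kb of a start. Of 5 T cell genes, 5, 5, 5 and 3 had one in replicates 1 to 4. Cd8b1 and Runx3, of the CD8 lineage, had one in every library, but Cd8a had relative heights of 0.498, 0.366, 0 and 0, against the label in replicates 3 and 4. In replicate 4 the T cell genes Cd3e and Cd3g were at 0 too, and sites of low height could not be judged there. Cd4 was at 0 in all 4 libraries, while Zbtb7b, a helper lineage regulator, had 0.251, 0.358, 0.746 and 1.12. Of 5 B cell genes, 3, 2, 4 and 2 had a promoter peak: Pax5 had 0.584, 0.648, 1.02 and 1.67, and Cd79a had 0, 0, 0.347 and 0.684. Of 5 myeloid genes 3, 3, 3 and 0 were called, of 3 natural killer genes none was, and of 3 erythroid genes 2, 2, 1 and 1 were. The part of other cells in the results was not tested. Values are given per library so that replicates 1 and 2 can be read apart, and in such bulk samples fewer cells with an open site and less cutting per cell cannot be told apart.

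The 4 genes were not equally dense (see the plot of density against locus length). The Vps37b locus, chr5:124004641-124032270 on the minus strand with its flanks, held 29 consensus sites in 77.6 kb, or 0.374 sites per kb. That was rank 1 of all protein-coding loci. The neighbouring Hip1r locus, around chr5:123973628-124005558 on the plus strand, held 24 sites in 81.9 kb, 0.293 per kb and rank 11. Gse1, chr8:120228456-120581390 on the plus strand, held 31 sites in 403 kb, 0.0769 per kb, which was above 80.3% of loci. Wwox, chr8:114439655-115352708 on the plus strand, held 28 sites in 963 kb, 0.0291 per kb. The Wwox density was below the median of protein-coding loci, 0.0336 per kb, so the label of a dense locus did not hold for it per kb. Its count was high for a locus of its length: it exceeded 98.9% of the 87 loci within 25% of its length, whose median was 1 site. Gse1 exceeded 99.5% of the 378 loci of like length, whose median was 3. With replicates 1 and 2 alone, a site needed a call in both, in place of 3 of 4 libraries. The counts at Gse1, Vps37b, Hip1r and Wwox were then 39, 37, 30 and 38.

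**Figure D1:**
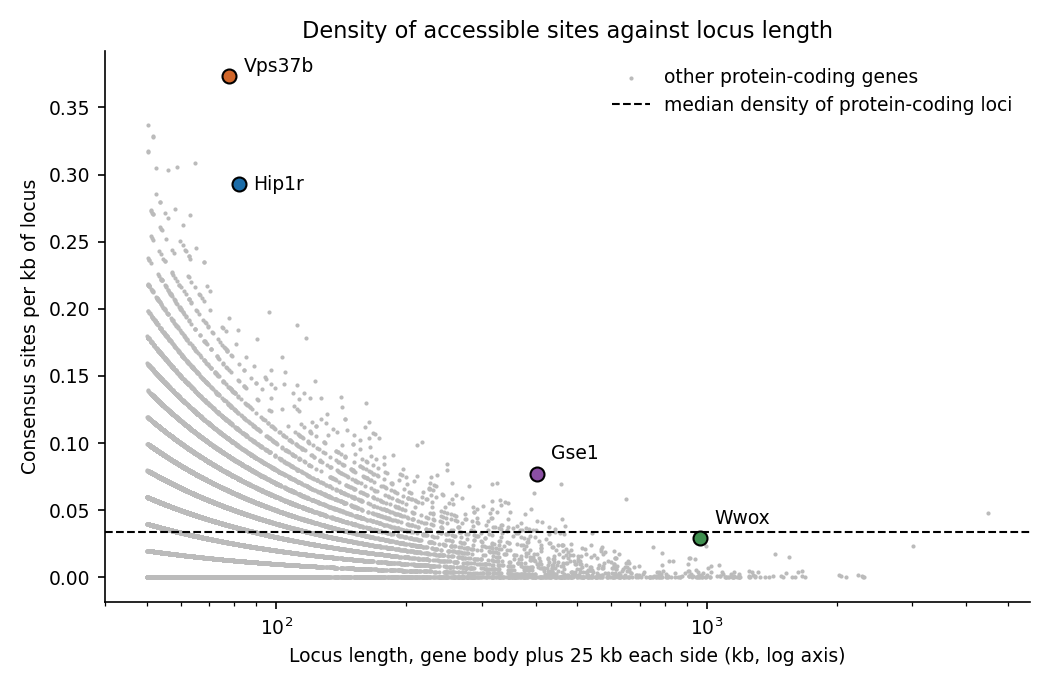
Consensus sites per kb of locus (vertical axis) against locus length in kb (horizontal log axis) for 21938 protein-coding genes, with the 4 named genes as large points and the median density of 0.0336 as a dashed line. Vps37b (0.374) and Hip1r (0.293) sit at the top of the plot, and Wwox (0.0291) lies just under the line.

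Vps37b and Hip1r point towards each other and overlap by 918 bases at their 3' ends, so their counts are not separate findings. They shared 22 sites, 75.9% of those at Vps37b and 91.7% of those at Hip1r, and 31 sites lay in either locus. Of the 24 sites counted for Hip1r, 18 lay nearest to a start of Vps37b, among all annotated starts of coding genes, and 6 to a start of Hip1r. Without flanks the Hip1r gene body kept 6 sites, whereas 20 touched the Vps37b gene body.

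The next 3 sequences show the kinds of site at Vps37b: the promoter, the tallest site away from any start, and the site with most footprints inside the gene. The last was added after its values were seen. All sequences here are the plus strand of the RefSeq GRCm38.p6 reference (mm10), not of the hybrid animals. Capitals mark bases under deposited footprints of at least 2 libraries, and untranslated exon bases were left out.
Vps37b promoter, chr5:124032271-124032460: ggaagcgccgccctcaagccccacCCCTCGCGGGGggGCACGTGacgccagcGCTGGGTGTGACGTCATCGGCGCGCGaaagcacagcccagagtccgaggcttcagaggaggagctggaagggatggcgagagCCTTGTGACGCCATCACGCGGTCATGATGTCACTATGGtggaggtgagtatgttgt
Vps37b upstream, chr5:124035847-124036146: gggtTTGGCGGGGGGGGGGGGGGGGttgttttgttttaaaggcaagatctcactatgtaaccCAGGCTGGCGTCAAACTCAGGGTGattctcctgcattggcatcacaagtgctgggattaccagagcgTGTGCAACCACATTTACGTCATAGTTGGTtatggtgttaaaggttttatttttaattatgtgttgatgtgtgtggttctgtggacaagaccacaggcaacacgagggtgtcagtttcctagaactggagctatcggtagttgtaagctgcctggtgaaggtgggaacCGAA
Vps37b intron 1, chr5:124023596-124023895: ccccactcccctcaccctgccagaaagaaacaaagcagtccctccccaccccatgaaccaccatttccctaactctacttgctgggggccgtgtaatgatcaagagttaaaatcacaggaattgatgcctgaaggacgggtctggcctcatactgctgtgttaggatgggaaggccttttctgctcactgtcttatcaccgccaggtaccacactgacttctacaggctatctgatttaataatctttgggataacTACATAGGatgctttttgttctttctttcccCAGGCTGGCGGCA
In the promoter sequence 82 of 190 bases were footprinted in at least 2 libraries, and in the upstream sequence 78 of 300. The intron 1 stretch, the most footprinted 300 bases of a site 2843 bp wide, had 21.

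The Vps37b promoter was open in every library. Its site, chr5:124032181-124032460, spanned the annotated start and that of the long noncoding RNA Gm34086, and had relative heights of 2.18, 2.09, 2.54 and 2.81. All 4 values were more than 2 times the median of sites shared by all libraries, and the libraries differed little. A group of sites lay a few kb upstream. The tallest, chr5:124035441-124036180, had relative heights of 1.51, 1.19, 0.756 and 0. Next to it, chr5:124034501-124034940 had 0.971, 0.850, 0.636 and 0. Replicates 1 to 3 called both and replicate 4 called neither. A further site with a start of the noncoding RNA Gm43661 within 1 kb was low, at 0.171, 0.242, 0.241 and 0. The site at the start of a noncoding Vps37b transcript inside the gene, chr5:124011020-124012360, was low too, at 0.260, 0.198, 0.388 and 0.

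Behind the promoter, the Vps37b gene body held many low peaks, close together, in replicates 1, 2 and 3 (see the map of peaks at both loci). The gene body touched 53, 45, 41 and 1 peaks in replicates 1 to 4. Peaks covered 63.3%, 39.4%, 47.5% and 0.326% of its 27.6 kb. Replicates 1 to 3 thus had between 39.4% and 63.3% of the gene under peaks (mean 50.1% ± 12.1, SD, n = 3), while replicate 4 had only the promoter peak. The body peaks other than that at the start had median relative heights of 0.193, 0.145 and 0.256 in replicates 1 to 3, and none exceeded 0.536. Their median widths were 350, 260 and 316 bp, so most were not wide by themselves. Joining peaks separated by at most 500 bp gave runs of up to 13.9, 8.06 and 9.33 kb in the 3 libraries, of which peaks covered 75.2%, 69.0% and 69.1%. The peaks were thus low and closely spaced, with gaps between them. Some of the peaks of 1 list overlapped one another there: 21 of 52, 7 of 44 and 11 of 40 in replicates 1 to 3. Over all peaks of these libraries 3.10%, 1.29% and 4.31% did so. Coverage counted each base once, but peak counts here and below counted such peaks separately.

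**Figure D2:**
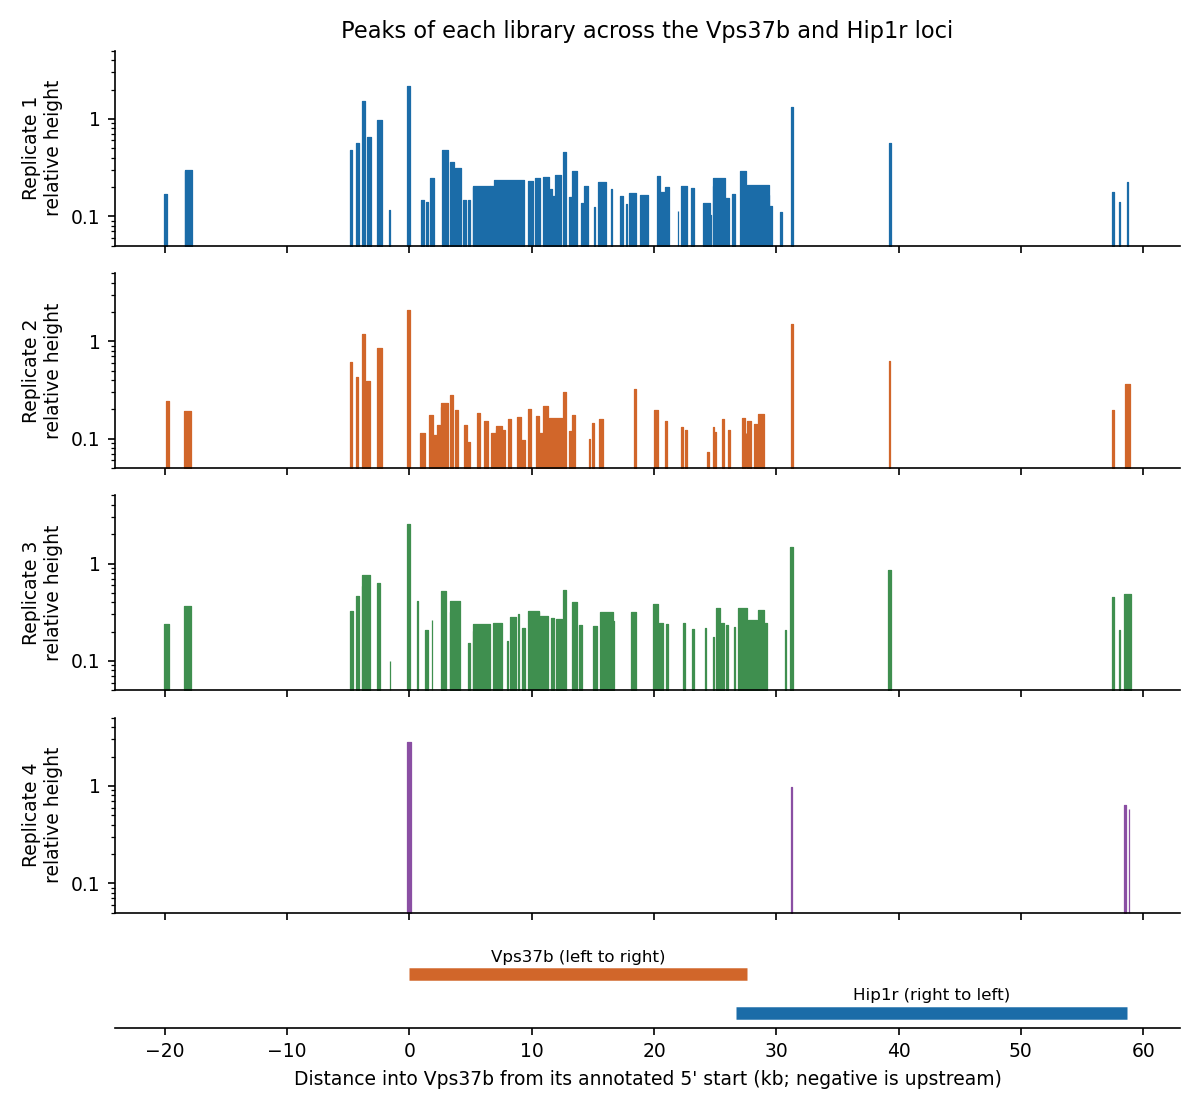
Relative height (log axis) of every peak of each library across both loci, against distance in kb into Vps37b from its annotated start, with the 2 gene bodies and their directions of transcription drawn below. Low peaks lie across the Vps37b body in replicates 1 to 3, and replicate 4 shows 1 peak there, at the start.

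Intron 1 of Vps37b makes up 21.2 of the 27.6 kb of the gene. It held 14 of the 29 consensus sites, 0.659 per kb, and 65.0%, 45.4%, 51.1% and 0% of its bases lay under peaks. Intron 2 held 2 sites (0.668 per kb), intron 3 held 1 (1.15 per kb), and the last exon held 2 (0.953 per kb). By these few sites intron 1 was no denser. By bases under peaks it was above intron 2 in replicates 1 to 3, where intron 2 had 49.6%, 13.3% and 16.1%. Intron 3, with 83.0%, 22.9% and 57.1%, and the last exon, with 63.8%, 30.2% and 58.9%, were each above intron 1 in some libraries and below it in others. Exon 2 had no base under peaks in any library. The covered stretch ran over the 3' end: peaks covered 99.3%, 52.6%, 72.9% and 0% of the first 2 kb past the gene. It then stopped, and between 2 and 25 kb past the 3' end 2.31%, 1.48%, 2.16% and 0.365% of bases were covered. Upstream of the start the 25 kb flank was covered to 10.4%, 9.80%, 11.0% and 0.680%. That cover was uneven: the 1 kb centred at -3.5 kb from the start had 54%, 54%, 72% and 0%. The 1 kb centred at -1.5 kb had 11.4%, 0%, 3.4% and 0%, and that at -5.5 kb had 0% in every library. The covered stretch therefore ran over most of the annotated gene, with an overhang into the end of Hip1r and a separate covered patch a few kb upstream.

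The consensus sites there, which join overlapping peaks of several libraries, were wide and mostly missing from replicate 4. At the Vps37b locus 8 of 29 sites were at least 1 kb wide, and the same 8 were counted for Hip1r. Over all consensus sites 0.759% were that wide. The median width was 600 bp against 248 bp over all sites. Few were called in every library: 2 of 29 at Vps37b and 2 of 24 at Hip1r, where 42.6% of all consensus sites were called in all 4. Height was also compared. Among Vps37b sites in the middle range of heights of replicate 1 (relative heights 0.207 to 0.473, the middle 50% of that locus), replicate 4 called 0 of 15, whereas it called 16.9% of all 16939 sites in that range. For Hip1r the same comparison gave 1 of 12 against 9.91%, for Wwox 1 of 15 against 30.5%, and for Gse1 7 of 16 against 15.7%. These counts are small, and sites at starts were not compared apart from other sites. The parts of depth and of position at a start in these counts were not tested.

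Few other genes were covered like Vps37b. Among 14164 gene bodies of at least 10 kb, the median share under peaks was 0.786%, 0.730%, 0.588% and 0.132% in replicates 1 to 4. Vps37b ranked 1, 2 and 1 in replicates 1 to 3, and 5373 in replicate 4. Only 2 bodies had at least 25% under peaks in each of replicates 1 to 3, Vps37b and Ccr7. Ccr7, the lymph node homing receptor of naive T cells, had 34.1%, 40.8%, 29.5% and 0%. Tnfaip3, which encodes the NF-kB inhibitor A20, had 55.6%, 34.3%, 24.5% and 1.89%. Both were singled out after their values were seen. In replicate 4 Vps37b and Tnfaip3 were above that library's median and Ccr7 had no peak. With the shorter peak list the Vps37b body was still covered to 42.0%, 31.6%, 36.2% and 0.326%.

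**Figure D3:**
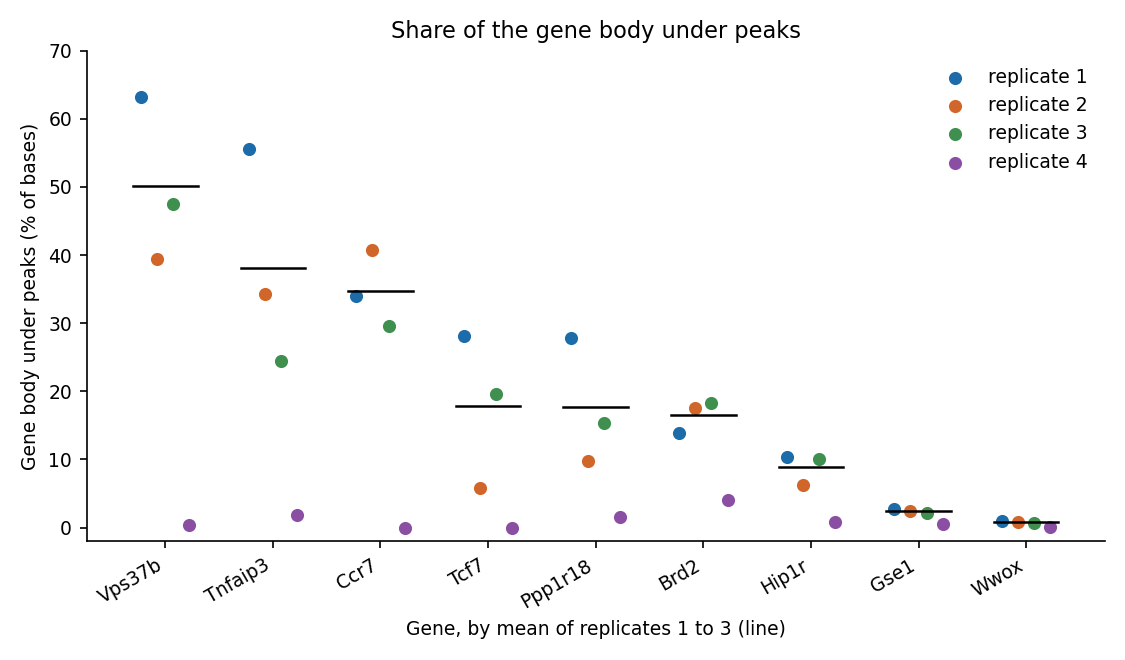
Percent of gene body bases under peaks in each library (points) for the 6 gene bodies of at least 10 kb with the highest mean of replicates 1 to 3 (lines) and for the other named genes. Vps37b leads with 63.3%, 39.4% and 47.5% in replicates 1 to 3 and has 0.326% in replicate 4.

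The cut-rate intervals, stretches whose cutting passed a false discovery rate of 0.05 in the deposited lists, gave the same layout. They covered 80.2%, 59.9%, 66.6% and 0.536% of the Vps37b gene body, where 0.996%, 0.895%, 0.780% and 0.252% of the chromosomes were covered. For the Hip1r gene body the shares were 14.8%, 7.29%, 13% and 0.924%. For Gse1 they were 3.86%, 3.72%, 3.38% and 0.721%, and for Wwox 1.48%, 1.36%, 1.11% and 0.216%. Vps37b stood far above the other 3 genes in replicates 1 to 3, and in replicate 4 it lay below Hip1r and Gse1.

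Footprints were sparse inside the wide sites. Of the bases under consensus sites at the Vps37b locus, 7.02%, 5.39%, 5.14% and 0.112% were footprinted in replicates 1 to 4, against 15.4%, 15.2%, 12.5% and 2.12% over all consensus sites. Within the gene body the shares were 5.46%, 3.55%, 3.40% and 0%. The Vps37b share was lower in all 4 libraries with a mean difference of -6.89 percentage points (SD 3.40, n = 4) and an exact two-sided sign-flip permutation p of 0.13, adjusted over the 4 loci 0.13, the smallest that 4 libraries can give. Hip1r, with largely the same sites, differed by -7.68 points (SD 3.88, 4 of 4 libraries, exact p 0.13). Wwox differed by -2.95 points (SD 1.67) and Gse1 by -1.9 points (SD 0.569), each lower in 4 of 4 libraries with an exact p of 0.13. Against consensus sites over 1 kb from any start, where 14.7%, 14.5%, 10.5% and 0.801% of bases were footprinted, Vps37b and Hip1r were again lower in every library. The Gse1 shares of 13.3%, 12.8%, 10.4% and 1.05% and the Wwox shares of 11.9%, 12.5%, 7.72% and 1.32% were below these in replicates 1 to 3 and above them in replicate 4. None of these tests can pass 0.05 with 4 libraries, and this measure was added after the data were seen. Shares were taken over the full width of merged sites, also where a library called no peak. Replicate 4 called 2 of 29 sites at Vps37b and 2 of 24 at Hip1r, against 18044 of 41228 over all. Its lower share at both loci could not be told apart from these missing calls. Vps37b sites were also wider (median 600 bp against 248 bp). They were lower too, with median relative heights of 0.260, 0.190 and 0.333 in replicates 1 to 3, against 0.431, 0.404 and 0.399 over all sites. The parts of width and height in the footprinted share were not tested. Counted per site rather than per base, 78.3% of all consensus sites touched a footprint in each of replicates 1, 2 and 3. At Vps37b 21 of 29 sites did and at Hip1r 16 of 24, both below that share. At Gse1 26 of 31 did and at Wwox 22 of 28, neither below it.

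**Figure D4:**
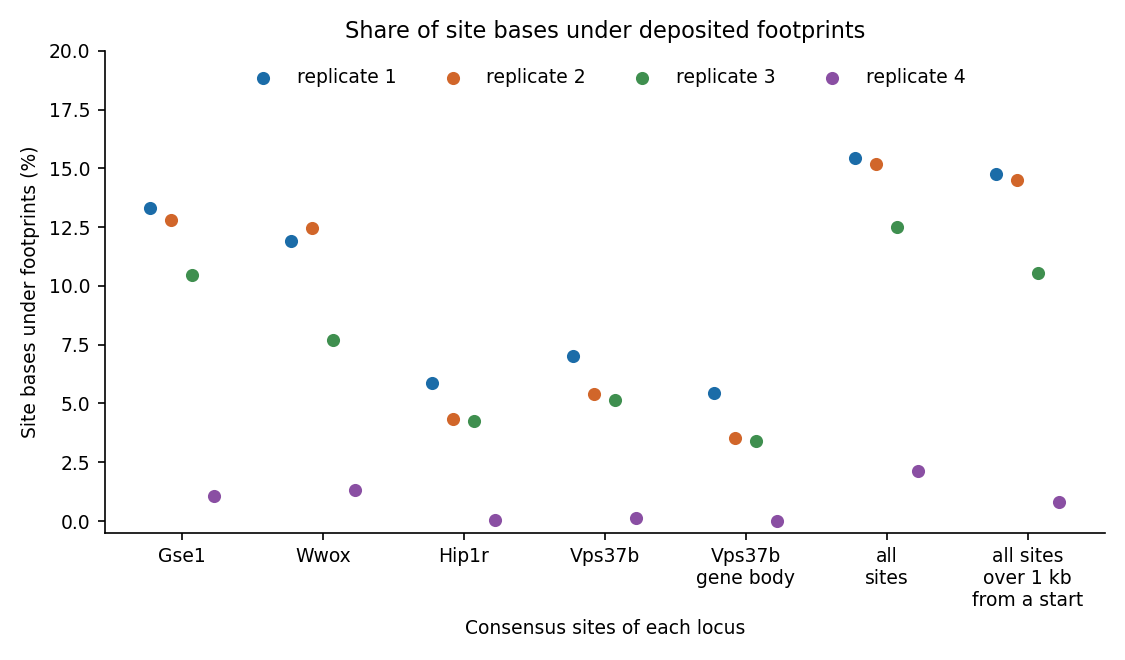
Percent of bases under consensus sites that lie under deposited footprints, for each library (points), at each locus, in sites wholly inside the Vps37b gene body, and over all sites. In replicates 1 to 3 the Vps37b values (5.14% to 7.02%) lie below the values over all sites (12.5% to 15.4%).

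Hip1r itself had few sites of its own. Its tallest lay over exon 27 near the 3' end, within 1 kb of the starts of 2 retained-intron transcripts, and the tallest away from any start lay in intron 7.
Hip1r exon 27 site, chr5:124000901-124001120: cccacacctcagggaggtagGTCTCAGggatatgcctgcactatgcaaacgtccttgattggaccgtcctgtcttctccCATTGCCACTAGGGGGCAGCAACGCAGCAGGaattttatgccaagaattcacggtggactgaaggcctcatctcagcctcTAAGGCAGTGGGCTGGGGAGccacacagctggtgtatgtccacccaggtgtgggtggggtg
Hip1r intron 7 site, chr5:123992901-123993100: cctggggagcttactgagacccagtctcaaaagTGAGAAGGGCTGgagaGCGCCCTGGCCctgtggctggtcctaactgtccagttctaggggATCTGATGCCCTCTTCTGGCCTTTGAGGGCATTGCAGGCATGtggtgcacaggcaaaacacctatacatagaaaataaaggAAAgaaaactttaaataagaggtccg
The exon 27 site had relative heights of 1.33, 1.51, 1.49 and 0.965, so all 4 libraries called it close to or above the level of a typical shared site. The site at the main Hip1r start, chr5:123973241-123973849, was lower, at 0.227, 0.366, 0.485 and 0.632. A second site near that start, chr5:123974621-123974860, had 0.178, 0.196, 0.45 and 0. The intron 7 site had 0.564, 0.632, 0.856 and 0. In each library the main promoter of Hip1r was therefore lower than the exon 27 site, with no overlap between the 2 sets of values. The starts of Ccdc62 and of the microRNA Mir7032, both inside the locus, had no consensus site nearby. Both sites within 1 kb of the uncharacterised transcript Gm37939, at the shared 3' ends, were low, the taller with 0.291, 0.164, 0.351 and 0.

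Gse1 differed from the pair on chromosome 5 in holding separate, narrow sites, none of them 1 kb wide. The tallest site at a start of the gene and the tallest away from any start are shown.
Gse1 start site, chr8:120489381-120489620: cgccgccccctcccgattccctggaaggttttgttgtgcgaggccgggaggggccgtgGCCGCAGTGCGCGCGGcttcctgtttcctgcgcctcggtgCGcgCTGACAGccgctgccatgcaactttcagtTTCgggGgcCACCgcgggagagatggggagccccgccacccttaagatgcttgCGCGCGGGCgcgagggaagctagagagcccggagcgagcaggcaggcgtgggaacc
Gse1 downstream site, chr8:120599641-120599800: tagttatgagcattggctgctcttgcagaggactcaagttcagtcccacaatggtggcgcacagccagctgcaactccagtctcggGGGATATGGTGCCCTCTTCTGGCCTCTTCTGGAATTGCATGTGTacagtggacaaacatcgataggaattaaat
The farthest upstream coding start, at position 120228456, where a long first transcript begins, had no consensus site within 1 kb. A second coding start inside the gene, at position 120488447, had 3. The tallest of these, in intron 1 of the second transcript, had relative heights of 0.960, 1.00, 1.16 and 1.33 and was called in every library. The other 2, chr8:120487581-120488200 and chr8:120486981-120487500, had mean relative heights of 0.488 ± 0.190 and 0.394 ± 0.210 (SD, n = 4). Further coding starts at positions 120535857 and 120537429 each had 2 sites. The taller ones had 0.696, 0.457, 0.663 and 0, and 0.293, 0.347, 0.436 and 0.649. A low site, chr8:120535873-120536800, lay near both, at 0.133, 0.116, 0.196 and 0. Noncoding starts at positions 120562623 and 120571281 each had 1 site, at 0.149, 0.177, 0.227 and 0, and at 0.493, 0.417, 0.564 and 0.702.

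The tallest site of the Gse1 locus was at the start of a neighbouring gene. It lay at chr8:120589041-120589500, within 1 kb of the starts of Gins2, which encodes a subunit of the replicative helicase complex, and of the noncoding RNA Gm10614, with relative heights of 2.80, 3.11, 3.05 and 2.11. The second, chr8:120538621-120538920, lay by the microRNA gene Mir7687 and the uncharacterised transcript 1700016A09Rik inside intron 1 of the second transcript and had 1.17, 1.31, 1.30 and 1.95. The Gse1 downstream site had 0.731, 1.34, 0.735 and 0.737, replicate 2 alone standing high. Intron 1 of the second transcript (64.4 kb) held 8 sites, 0.124 per kb. Introns 1 and 2 of the long transcript, 123 and 199 kb long, held 7 and 10, or 0.0568 and 0.0501 per kb. The tallest in these introns, chr8:120300941-120301160, had 0.616, 0.589, 0.677 and 0.702, a narrow range. Of the 31 sites, 14 were called in all 4 libraries, close to the background of 42.6%. Among starts of coding genes, 27 sites lay nearest to one of Gse1 and 4 to one of Gins2.

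Wwox combined one very tall promoter with a scatter of sites over its longest intron, the tallest of which is shown.
Wwox intron 8 site, chr8:115189881-115190180: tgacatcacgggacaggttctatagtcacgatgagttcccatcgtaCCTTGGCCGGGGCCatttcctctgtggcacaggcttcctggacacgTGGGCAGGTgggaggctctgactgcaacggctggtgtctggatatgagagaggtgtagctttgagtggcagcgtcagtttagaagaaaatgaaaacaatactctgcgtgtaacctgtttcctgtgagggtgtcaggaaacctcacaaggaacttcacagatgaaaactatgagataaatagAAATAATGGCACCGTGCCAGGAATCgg
The promoter site, chr8:114439521-114439760, had relative heights of 4.53, 3.27, 5.36 and 3.49, the highest at any of the 4 loci in every library. It was also the only 1 of the 28 sites within 1 kb of an annotated start, where 46.5% of all consensus sites lay at a start. The other numbers at starts were 10 of 31 at Gse1, 6 of 29 at Vps37b and 6 of 24 at Hip1r.

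Intron 8 of Wwox, 639 kb long, held 23 of the 28 sites, 0.0360 per kb. Intron 5, 191 kb long, held 1. By the mean over 4 libraries, with 0 where no peak was called, the tallest intron 8 site, chr8:115189881-115190220, had relative heights of 1.34, 1.07, 1.08 and 0.667 and lay 478 kb from the nearest annotated start of any coding gene, that of a noncoding Wwox transcript. The next, chr8:114971481-114971680, had 1.28, 1.07, 1.07 and 0.719. Then came chr8:114771481-114771680 with 1.01, 0.619, 0.759 and 0.772, and chr8:114815401-114815720 with 0.898, 0.594, 0.814 and 0.754. These 4 were called in every library, with values that overlapped between them. The site chr8:114801801-114802020, with 0.989, 1.31, 0.670 and 0, was the tallest of intron 8 in replicate 2 and ranked lower by the mean because replicate 4 had no peak. It was singled out after its values were seen. The other intron 8 sites reached mean relative heights between 0.101 and 0.562. Of the 28 sites, 7 were called in all 4 libraries. The start of Clec3a, a neighbour in the upstream flank, and those of the antisense genes Gm16116, Gm16117 and Gm16118 had no consensus site within 1 kb.

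**Figure D5:**
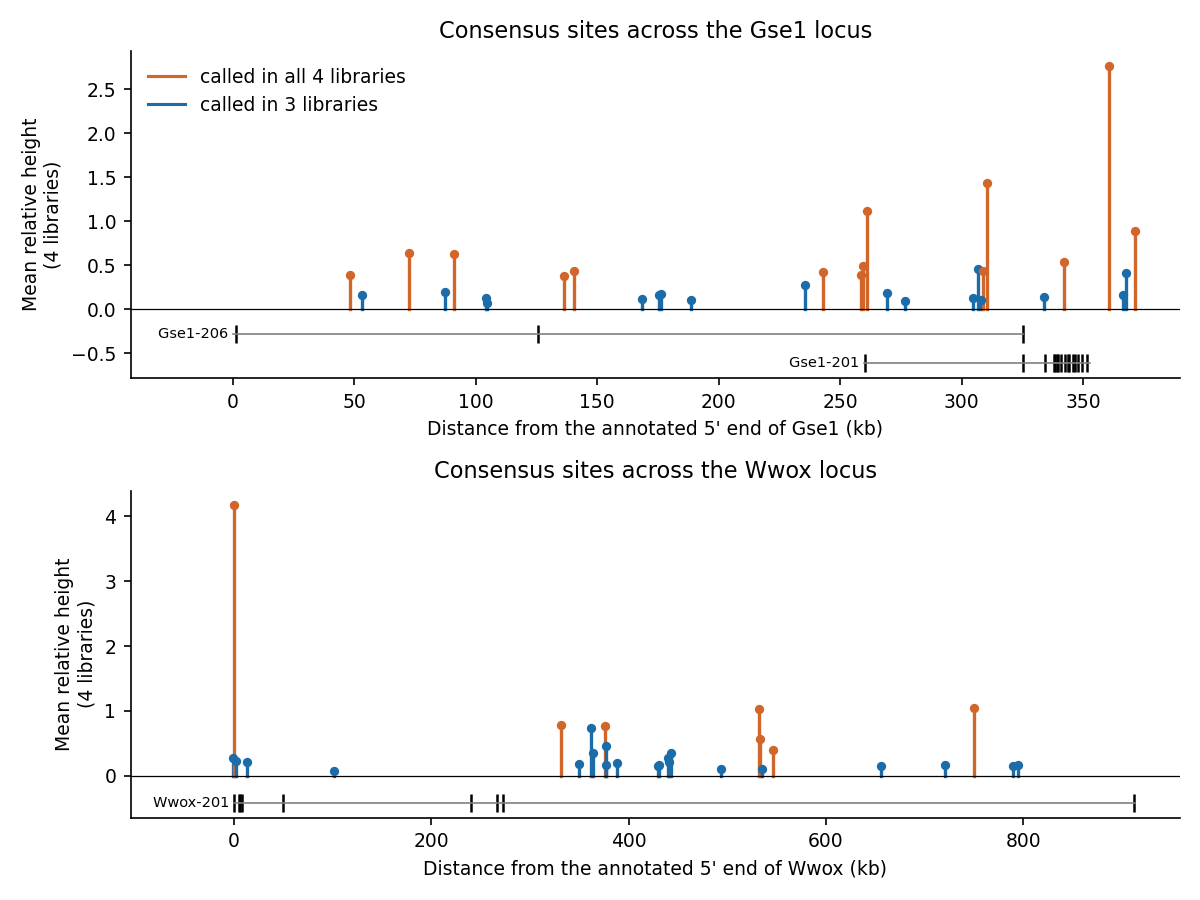
Mean relative height over 4 libraries (vertical axis) of each consensus site against distance in kb from the annotated 5' end of Gse1 (top) and Wwox (bottom), coloured by the number of libraries that called it, with exons as ticks below. The tallest Gse1 site (2.77) lies past the gene at the Gins2 start, and the tallest Wwox site (4.16) is the promoter, with 23 of the 28 sites spread over intron 8.

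Peak heights at the loci were compared with all peaks of the same library. The choice went by counts and not by heights, but both came from the same peak lists, so heights were not independent of it. At Gse1 the median height of the locus peaks was lower in 4 of 4 libraries, with log2 ratios of -0.30, -0.14, -0.58 and -0.35 (mean -0.34, SD 0.18, exact p 0.13, adjusted p 0.25). At Hip1r it was also lower in 4 of 4, with -0.27, -0.42, -0.31 and -0.50 (mean -0.37, SD 0.11, exact p 0.13, adjusted p 0.25). Wwox went both ways, with 0.25, 0.14, -0.37 and -0.37 (mean -0.09, SD 0.33, exact p 0.75, adjusted p 1). Vps37b had -0.24, -0.35, -0.25 and 1.08 (mean 0.06, SD 0.68, exact p 1, adjusted p 1). The value of replicate 4 there rests on 2 peaks, and without it the mean was -0.28. All 4 tests were two-sided sign-flip permutation tests over 4 libraries, which cannot go below 0.13. Among peaks over 1 kb from any start, Gse1 peaks were no longer lower in every library (mean -0.03, 2 of 4 libraries below). Hip1r then had 0.02, -0.20 and 0 (mean -0.06, 1 library below), so it too was no longer lower in every library. At Vps37b and Hip1r replicate 4 had no such peak. The share of peaks that overlapped a footprint differed from that of all peaks by -8.12 (SD 13.9), 9.57 (SD 24.4), -6.29 (SD 10.7) and 0.277 (SD 12.2) percentage points at Gse1, Vps37b, Hip1r and Wwox, with exact p-values of 0.375, 0.875, 0.375 and 1. None of these was larger than the spread between libraries. With replicates 1 and 2 alone the Gse1 difference was 1.85 points.

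The site sequences were searched for the spellings of 15 transcription factor families in the central 200 bases, on both strands. The match rates are descriptions and not binding sites. The E-box spelling CACCTG, read by E proteins and ZEB repressors, was in 9 of 31 Gse1 sites, 10 of 31 sites of the Vps37b or Hip1r locus and 11 of 28 Wwox sites, where 18.3% of all consensus sites held it. The RUNX spelling TGTGGTT was in 2, 2 and 3 of these sites, against 6.74%. Neither ETS spelling, CCGGAAGT or CAGGAAGT, was in any of the 31 sites of Vps37b or Hip1r, against 7.37%. The CTCF spelling AGNNGGCNC was in 12 of 31 Gse1 sites, 4 of 31 at Vps37b or Hip1r and 7 of 28 at Wwox, against 26.9%. Among consensus sites over 1 kb from any start, the E-box, RUNX, ETS and CTCF shares were 21.2%, 9.50%, 7.04% and 29.1%. In the printed sequences, the CREB spelling TGACGTCA lay wholly within footprinted bases of the Vps37b promoter, and TGTGGTT did so once in the upstream Vps37b sequence. The CTCF spelling lay wholly within footprinted bases of the Gse1 downstream site. CREB spellings were in 1.35% of all sites.

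A pair of the printed sites shared a stretch. Among 36 pairs of site sequences compared, the longest run in common was TGCCCTCTTCTGGCCT, 16 bases, in the Gse1 downstream site and the Hip1r intron 7 site, and it was footprinted in at least 2 libraries in both. The next longest run in any pair was 12 bases. The same 16 bases were in 310 consensus sites, 0.752% of all, and in all 310 they lay in repeat-masked sequence of the reference. Repeats made up 45.6% of the Gse1 downstream site and 73.5% of the Hip1r intron 7 site, where the median over all consensus sites was 5.50%. How reads of repeated sequence were placed is not given in the sources used here.

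No other listed ESCRT-I gene was covered like Vps37b. All 13 listed ESCRT-I and associated genes had a promoter site, meaning a consensus site no farther than 1 kb from a start, against 55.1% of protein-coding genes, and the 12 other than Vps37b had between 1 and 12 sites at their loci (median density 0.0349 per kb, all loci 0.0336). The share of the gene body under peaks in replicate 1 was at most 3.60% in those 12. Of 16 clathrin endocytosis genes 15 had a promoter site, and the 15 other than Hip1r had between 0 and 12 sites (median 0.0383 per kb). All 14 listed corepressor partners of Gse1 had a promoter site, with 2 to 15 sites at their loci (median 0.0667 per kb). Of 16 large genes at fragile sites 11 had a promoter site. The 15 other than Wwox had a median of 3 sites and a highest density of 0.0154 per kb, in Pde4d, a cyclic AMP phosphodiesterase with 24 sites. Wwox, at 0.0291, was therefore the densest of its list while below the median of all genes.

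The genes whose peak counts over the 4 libraries lay closest to those of a named gene were found by the distance between counts per 10000 peaks. Wwox had 6.48, 6.09, 5.87 and 3.87 peaks per 10000 and was closest to Pde4d (distance 0.612), then Thada (1.2) and Bach2 (1.57). Gse1, with 6.77, 6.80, 8.998 and 6.78, was closest to Bach2 (3.11), Gm37240 (3.49) and Thada (3.54). Vps37b, with 10.1, 8.22, 10.8 and 0.969, was closest to Gm20696 (3.52), Foxp1 (3.62) and Bach2 (6.50). Hip1r, with 8.79, 7.09, 9.19 and 1.45, was closest to Gm20696 (2.28), Foxp1 (3.80) and Thada (4.36). The Gm20696 locus (459 kb) was much longer than those of Vps37b (77.6 kb) and Hip1r (81.9 kb), so a similar count there meant a lower density. The reverse held for Wwox (963 kb) against Thada (326 kb) and Bach2 (397 kb), while Gse1 (403 kb) and Bach2 were of like length.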

How the data were processed

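Lists deposited per library on mm10 were analysed. The aligner, peak caller and peak threshold were not given in the sources used here. Column 7 of each peak list is a signal, the peak height scaled to library depth by the authors, whose low values were whole multiples of 1 step (tolerance 0.05 of a step). Deposited footprints carry a constant q-value of 0.01, and deposited cut-rate intervals a false discovery rate under 0.05. Genes were read from GENCODE mouse release 21.

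Peaks were merged on 1 bp of overlap. Exact two-sided sign-flip permutation tests over 4 libraries, with Benjamini-Hochberg adjustment over 4 loci, were run in Python 3.11.15 with numpy 2.4.6 and tested on simulated data. The genes, lists and tests were chosen with earlier results of these data known, and footprinted bases, gene body coverage and joined sites were added after seeing the data. Named were the 4 genes, other genes whose starts had a site, the 3 genes nearest in peak counts per locus, the 5 tallest sites, sites at starts of the 4 genes and the site with most footprints. Alternatives varied the number of libraries, list, overlap, flanks, peak number and left-out replicates. One marker gene and one site sequence are not reported here.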

Additional observations from a re-analysis of the deposited data

Results flagged for a closer look

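Of 52 sets of 4 library values that were examined, 6 had 1 library far from the other 3; chance alone marks about 1 in 20 sets. At Vps37b, replicate 4 had a log2 height ratio of 1.08 and a footprinted share 45.9 percentage points above all its peaks, both from 2 peaks. At Gse1, replicate 3 had 8.998 peaks per 10000 where the others had 6.77 to 6.80, and replicate 2 had a relative height of 1.34 at the site downstream of the gene where the others had 0.731 to 0.737. Cut-rate intervals of replicate 4 covered 0.828% of the Gse1 locus and 0.721% of its gene body, against at least 3.44% and 3.38% in the other libraries. Replicate 4 was the library with the fewest implied cuts, 24.3 M, and the part of depth in these values was not tested.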

How the results depend on the processing

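The number of sites at each locus depended on how sites were defined. Calls in all 4 libraries left 14, 2, 2 and 7 sites at Gse1, Vps37b, Hip1r and Wwox, and the same number of highest peaks per library left 9, 5, 2 and 8. The shorter list gave 19 at Gse1 and 18 at Wwox. Overlap of at least 50% both ways gave 12 at Vps37b and 7 at Hip1r. Flanks of 100 kb gave 44 and 41, and for Hip1r flanks of 5 kb gave 10 and the gene body 6. Joining sites within 500 bp, an alternative chosen after seeing the data, gave 14 at Vps37b and 12 at Hip1r. The other 38 of 56 recounts stayed within 1.5 times, and leaving out 1 replicate (calls in 2 of the other 3) gave 32 to 42, 35 to 37, 29 to 31 and 28 to 39.

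Height ratios (log2) changed sign at Vps37b with the shorter list (-0.30), without replicate 4 (-0.28, range over left-out replicates -0.28 to 0.20) and with replicates 1 and 2 only (-0.30). They did so at Hip1r with 100 kb flanks (0.040), and at Wwox for peaks over 1 kb from any start (0.23), without replicates 3 (0.0084) and 4 (0.0064) in turn (range -0.20 to 0.0084) and with replicates 1 and 2 only (0.20). Footprinted shares changed sign with replicates 1 and 2 only at Gse1 (1.85 points). At Vps37b they did so with the shorter list (-3.67), for peaks over 1 kb from any start (-3.03), with replicates 1 and 2 only (-2.22) and without replicate 4 (-2.55; range -2.55 to 14.7). At Hip1r this came with 100 kb flanks (5.53), and at Wwox without replicates 1 (-0.029), 2 (-3.76) and 3 (-0.988), with a range of -3.76 to 5.89. The cause was not tested. The Vps37b gene body share under peaks was 36.6% with the shorter list and 37.6% over all 4 libraries. The 20 recalculations of footprinted bases kept their direction. They only left out libraries, and the difference was negative in all 4 libraries at every locus, so the direction could not change. The 8 recalculations of cut-rate coverage used stricter thresholds, and coverage fell at every locus. The falls stayed within the spread between libraries, but the much lower values of replicate 4 widened that spread. Neither set of recalculations therefore shows that these results were stable. No paired analysis was possible because there was 1 group. Sites of low height could not be judged in replicate 4, the shallowest library.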
